A study of Homo sapiens with 6 samples.

Results

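Long noncoding RNAs that are usually plentiful in the nucleus or cytoplasm of human cells were described after an siRNA against RCC2 and after a control siRNA in DU145, a human prostate cancer line that grows without androgen. The RNAs were chosen by name, as the rows of the deposited count tables called MALAT1, NEAT1, KCNQ1OT1, TUG1, NORAD and OIP5-AS1. These are 6 of the 50868 genes with a row, and 5 of them had enough reads to be among the 16536 genes tested. RCC2 belongs to the RCC1 repeat family, binds centromeres and acts on small GTPases, and the series' title links it to growth and movement of prostate cancer cells through Hedgehog signalling and stem-like cells. The siRCC2 group (labelled RCC2 knockdown) had 3 libraries and the siCtrl group (labelled RCC2 wild type) had 3. All 6 libraries came from the same cell line, and neither the time after transfection nor the siRNA sequences are given in the sources used here.

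Long noncoding RNAs of this kind act as transcripts, without a protein product. Some build or collect in nuclear bodies: NEAT1 is the scaffold of paraspeckles, and MALAT1 gathers in nuclear speckles beside splicing factors. Others bind regulators: NORAD titrates the Pumilio proteins, OIP5-AS1 (also called Cyrano) pairs with the microRNA miR-7 and triggers its decay, TUG1 has been tied to Polycomb proteins, and KCNQ1OT1 silences imprinted neighbours on the paternal chromosome.

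Total counts ran from 17377191 to 19895431 per siRCC2 library and from 18206357 to 19808215 per siCtrl library, and RCC2 itself had 54.8 to 59.3 CPM (counts per 1000000 counts, with TMM scaling) in siRCC2 libraries, against 191 to 198 CPM in siCtrl libraries. At this depth 1 CPM stands for about 16.5 to 20.2 reads. The labelled cell type was checked on marker lists. The summed level of 5 carcinoma keratin and adhesion genes was 2702 to 3231 CPM in siRCC2 and 4340 to 4552 CPM in siCtrl. Of these KRT7 (1636 ± 203 CPM in siRCC2 and 3588 ± 116 CPM in siCtrl) and EPCAM were lower and KRT8, KRT18 and CDH1 higher, all past an edgeR adjusted p of 0.05. Leukocyte markers summed to 16.0 to 23.3 CPM in siRCC2 and 15.1 to 18.1 CPM in siCtrl, nearly all CD68, with CD3E at 0. Fibroblast markers summed to 10.9 to 13.7 CPM in siRCC2 and 12.9 to 15.4 CPM in siCtrl, with LUM at 0, and endothelial markers to 0.524 to 0.979 CPM in siRCC2 and 1.19 to 1.46 CPM in siCtrl. Of the 16536 genes tested, 6911 (41.8%) passed an adjusted p of 0.05 and 3423 (20.7%) passed it as higher in siRCC2. No label says that the replicates were cultured separately, so the p-values rest on library-to-library spread that could be technical.

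One library stood apart. In siRCC2 replicate 1 long transcripts were lower and short ones higher than in the other siRCC2 libraries. Among genes with a mean of at least 10 CPM, the median log2 difference between replicate 1 and the mean of replicates 2 and 3 was 0.19 for the 939 genes whose longest transcript is under 1.5 kb, and -0.23 for the 2060 genes of 6 kb and over. With all libraries, the median log2 fold change of siRCC2 over siCtrl was 0.12 for genes under 1.5 kb and -0.13 at 6 kb and over. The part of transcript length in the group fold changes was not tested. Since 4 of the 5 tested RNAs are longer than 6 kb, the results on these RNAs are given with and without siRCC2 replicate 1. Those on gene lists are given by their counts without that library.

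TUG1 was the 1 RNA of the 5 tested that passed the threshold, and it was higher after RCC2 siRNA. NORAD was higher in every siRCC2 library by a smaller margin that did not pass. OIP5-AS1, NEAT1 and MALAT1 varied widely among the siRCC2 libraries and their groups overlapped, and KCNQ1OT1 was close to absent.

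**Figure D1:**
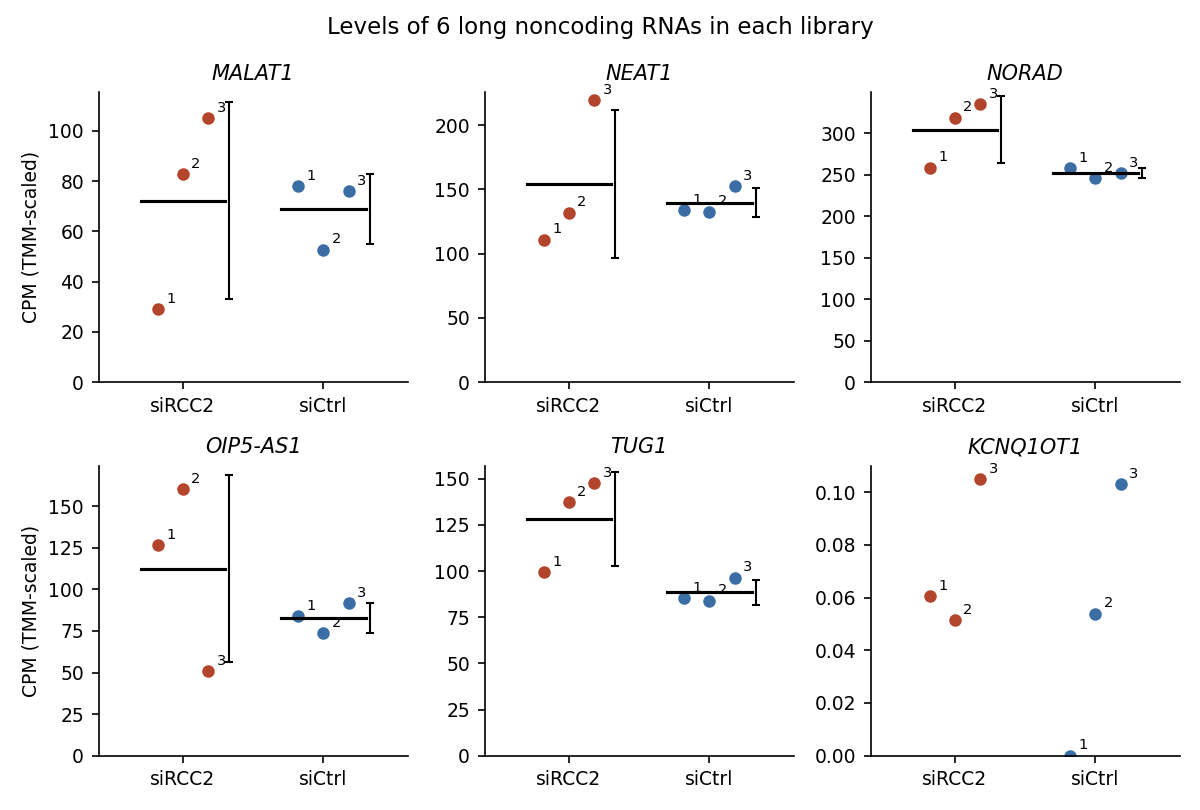
Level of each RNA in CPM (TMM-scaled) in the 3 siRCC2 (red, left) and 3 siCtrl (blue, right) libraries; numbers are replicate numbers, horizontal lines are means and error bars are SDs over 3 libraries (not drawn for KCNQ1OT1, which has 0 to 2 reads per library), and each panel has its own axis from 0. The 3 siRCC2 libraries lie above the 3 siCtrl libraries for TUG1 and NORAD and overlap them for the other 4.

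TUG1 (ENSG00000253352, GRCh38 chromosome 22, 30970677 to 30979395, plus strand) is a spliced RNA found in both nucleus and cytoplasm, and GENCODE 29 classes it as a noncoding RNA of a bidirectional promoter. It had 99.5, 137 and 148 CPM in siRCC2 replicates 1 to 3, against 85.3, 83.9 and 96.4 CPM in siCtrl replicates 1 to 3. Every siRCC2 library was above every siCtrl library, with siRCC2 replicate 1 only just above the highest siCtrl library. The mean was 128 ± 25.4 CPM in siRCC2 and 88.6 ± 6.84 CPM in siCtrl (SD, n = 3 libraries each). The log2 fold change was 0.53 ± 0.15 (SE; edgeR quasi-likelihood test, adjusted p = 0.0258), or 1.45-fold. In bulk RNA a change in how many cells make the transcript and a change per cell cannot be told apart.

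One TUG1 call among 5 tested RNAs stands beside the 41.8% of all tested genes that were called. Without siRCC2 replicate 1 the log2 fold change of TUG1 was 0.67 (edgeR adjusted p = 0.00121). The call was lost without siRCC2 replicate 2 (0.49, edgeR adjusted p = 0.0638), siRCC2 replicate 3 (0.42, edgeR adjusted p = 0.0617), siCtrl replicate 1 (0.51, edgeR adjusted p = 0.0841) or siCtrl replicate 2 (0.49, edgeR adjusted p = 0.0866), and with total counts as the only scaling (0.47, edgeR adjusted p = 0.0575). Of all 50-base stretches of its longest transcript 14.5% occur in transcripts of other genes, the most (6.09%) in AC004542.2, which overlaps TUG1 on the opposite strand and had no read in any library.

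The start region of TUG1 is shown whole because TUG1 carries the called change. RefSeq places the start of TUG1 upstream of the deposited locus. The window runs from 250 bases before to 50 bases after that start (GRCh38.p14, chr22:30969015-30969314, plus strand), and the capitals mark CACGTG, the E-box hexamer bound by basic helix-loop-helix factors.
TUG1: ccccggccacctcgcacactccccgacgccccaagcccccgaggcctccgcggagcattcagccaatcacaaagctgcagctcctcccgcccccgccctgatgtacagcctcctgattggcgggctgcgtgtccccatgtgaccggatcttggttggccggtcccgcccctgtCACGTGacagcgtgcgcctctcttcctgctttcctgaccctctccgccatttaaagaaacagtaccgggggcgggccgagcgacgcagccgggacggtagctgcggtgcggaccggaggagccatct
The same 6 letters occur once in the RefSeq windows of NORAD (chr20:36051066-36051125, minus strand) and OIP5-AS1 (chr15:41283740-41283782, plus strand), of which the stretch around the hexamer is given.
NORAD: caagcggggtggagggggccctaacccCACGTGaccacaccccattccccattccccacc
OIP5-AS1: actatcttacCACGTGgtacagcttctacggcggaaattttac
The middle of the hexamer lies 74 bases before the RefSeq start of TUG1, 135 before that of NORAD and 237 before that of OIP5-AS1.

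NEAT1 and KCNQ1OT1 had no RefSeq window in the sources used here and were not searched. The hexamer was in 3 of the 5 RefSeq windows of the other RNAs, and in 7.26% of all 35116 windows of 300 bases. MALAT1 has 2 of the 5 windows, neither with the hexamer. One of them held TATAAA, found in 11.5% of all windows. GGGCGG was in the windows of MALAT1, OIP5-AS1 and TUG1 and in 45.0% of all windows, and CCAAT in those of OIP5-AS1 and TUG1 and in 34.6%. Each motif was searched on both strands, the motifs were picked after the windows had been read, and a match describes letters only.

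NORAD (ENSG00000260032, chromosome 20, 36045622 to 36050960, minus strand) is a mostly cytoplasmic, single-exon RNA that holds many copies of the site read by the Pumilio proteins, which repress their messenger RNA targets. Its longest transcript (5339 bases) holds 15 copies of TGTANATA, searched on the transcript strand, or 2.81 per kb. Of 16442 tested genes with a transcript sequence, 4 had at least as many, NORAD among them, and 71.0% had none. Among the other RNAs KCNQ1OT1 held 9, NEAT1 6, TUG1 2, OIP5-AS1 1 and MALAT1 0. In NORAD 3 pairs of copies start 9 bases apart. These pairs are shown because they are the densest stretches of Pumilio motifs in the RNA, with the motif in capitals.
NORAD, transcript bases 1436 to 1464 (chr20:36049497-36049525): tatctgTGTATATAgTGTACATAaaggac
NORAD, transcript bases 2633 to 2661 (chr20:36048300-36048328): ctatacTGTATATAtTGTATATAtaacgg
NORAD, transcript bases 3269 to 3297 (chr20:36047664-36047692): gtgctgTGTATATAgTGTATATAagcgga
All 3 are on the minus strand of GRCh38, from the GENCODE 29 transcript.

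NORAD had 258, 319 and 335 CPM in siRCC2 replicates 1 to 3, against 257, 246 and 252 CPM in siCtrl replicates 1 to 3. The lowest siRCC2 library was almost level with the highest siCtrl library, and the other siRCC2 libraries lay clearly above it. The mean was 304 ± 40.4 CPM in siRCC2 and 252 ± 5.61 CPM in siCtrl (SD, n = 3 each). The log2 fold change was 0.27 ± 0.10 (SE; 95% interval 0.03 to 0.51) and did not pass (edgeR adjusted p = 0.0667).

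Groups without overlap, as in NORAD and TUG1, were found in 9155 of the 16536 genes tested (55.4%). Without siRCC2 replicate 1 NORAD passed, at a log2 fold change of 0.36 (edgeR adjusted p = 0.00230). It also passed with DESeq2 size factors in edgeR (0.28, edgeR adjusted p = 0.0460). Of the 50-base stretches of NORAD 35.3% occur in other genes' transcripts, so the authors' counting could split its reads. OVCH1-AS1, which holds the most of them (22.7%), had 0 or 1 reads per library and LINC02211 (11.6%) had none.

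OIP5-AS1 (ENSG00000247556, chromosome 15, 41283990 to 41309737, plus strand) is a cytoplasmic RNA with 1 extended site for miR-7, shown in mice to trigger the decay of that microRNA. The site is shown with miR-7-5p because it is the feature the RNA is best known for. Capitals mark the bases of the site that pair with the microRNA, and bases 2 to 8 (the seed) of the microRNA.
OIP5-AS1, transcript bases 2868 to 2895 (chr15:41300573-41300600, plus strand): gAACAACAAAATCACcaatGTCTTCCAt
hsa-miR-7-5p (RefSeq, GRCh38.p14): uGGAAGACuagugauuuuguuguu
The site pairs with 22 of the 24 bases of the microRNA by Watson-Crick matches, 8 at the seed end and 14 upstream of a short unpaired stretch. The transcript has 3 matches to the seed in all, and the other two have no such upstream pairing.

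OIP5-AS1 had 126, 160 and 50.8 CPM in siRCC2 replicates 1 to 3, against 83.7, 73.6 and 91.6 CPM in siCtrl replicates 1 to 3. Here replicate 3 was the low siRCC2 library, below every siCtrl library, and the other siRCC2 libraries were above every siCtrl library. The mean was 113 ± 56.1 CPM in siRCC2 and 82.9 ± 9.02 CPM in siCtrl (SD, n = 3 each). The log2 fold change of 0.44 ± 0.37 (SE; 95% interval -0.43 to 1.30) did not pass (edgeR adjusted p = 0.373). Without siRCC2 replicate 3 it was 0.79 and passed (edgeR adjusted p = 0.00588), and without siRCC2 replicate 1 it was 0.34 (edgeR adjusted p = 0.548).

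The far end of OIP5-AS1 overlaps OIP5, a centromere protein gene on the opposite strand. Whether reads were counted by strand is not given in the sources used here, so reads in the overlap cannot be told apart. OIP5 had 31.2 ± 1.21 CPM in siRCC2 and 26.5 ± 0.777 CPM in siCtrl, a log2 fold change of 0.24 ± 0.09 (edgeR adjusted p = 0.0614), and its counts in siRCC2 replicates 1 to 3 were 515, 629 and 572. The dip of OIP5-AS1 in siRCC2 replicate 3 had no counterpart there.

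MALAT1 and NEAT1 lie 52.2 kb apart on chromosome 11 and end alike. In both, RNase P, the enzyme that trims transfer RNA precursors, cuts the precursor just upstream of a tRNA-like fold, and the new end has no poly(A) tail but an A-rich tract that forms a triple helix with a pair of U-rich tracts. The last 100 bases before the cut are given from the longest transcripts in GENCODE 29 (GRCh38, plus strand), with the U-rich and A-rich tracts in capitals, because this end is what sets the pair apart from the other RNAs described.
MALAT1 (chr11:65506017-65506116): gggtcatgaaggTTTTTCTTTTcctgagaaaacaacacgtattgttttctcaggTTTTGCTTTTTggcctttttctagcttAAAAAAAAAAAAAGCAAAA
NEAT1 (chr11:65445441-65445540): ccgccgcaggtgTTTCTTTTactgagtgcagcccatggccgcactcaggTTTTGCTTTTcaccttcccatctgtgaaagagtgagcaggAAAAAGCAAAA
MALAT1, the 58 bases after the cut, which become the small cytoplasmic mascRNA (chr11:65506117-65506174): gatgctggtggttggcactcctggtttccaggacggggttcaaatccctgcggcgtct
How ribosomal RNA was removed or messenger RNA selected is not given in the sources used here.

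MALAT1 (ENSG00000251562, chromosome 11, 65497762 to 65506516, plus strand) had 29.02, 82.7 and 105 CPM in siRCC2 replicates 1 to 3, against 77.9, 52.7 and 76.0 CPM in siCtrl replicates 1 to 3. Replicate 1 was the lowest of all 6 libraries and replicate 3 of siRCC2 the highest, so the siRCC2 libraries enclosed the siCtrl libraries. The mean was 72.2 ± 39.1 CPM in siRCC2 and 68.9 ± 14.03 CPM in siCtrl (SD, n = 3 each). The log2 fold change was 0.07 ± 0.42 (SE; 95% interval -0.92 to 1.06; edgeR adjusted p = 0.907). Without siRCC2 replicate 1 it was 0.43 (edgeR adjusted p = 0.103), without siRCC2 replicate 3 it was -0.30 (edgeR adjusted p = 0.606), and it was also below 0 without siRCC2 replicate 2 (-0.04) or siCtrl replicate 2 (-0.09). AP000769.2, which overlaps MALAT1 on the opposite strand, had 1 to 8 reads per library.

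NEAT1 (ENSG00000245532, chromosome 11, 65422774 to 65445540, plus strand) had 111, 132 and 220 CPM in siRCC2 replicates 1 to 3, against 134, 133 and 153 CPM in siCtrl replicates 1 to 3. A single library, siRCC2 replicate 3, lay above all siCtrl libraries, and the other siRCC2 libraries lay below them. The mean was 154 ± 57.7 CPM in siRCC2 and 140 ± 11.2 CPM in siCtrl (SD, n = 3 each). The log2 fold change was 0.14 ± 0.24 (SE; 95% interval -0.42 to 0.70) and did not pass (edgeR adjusted p = 0.660). It was 0.32 without siRCC2 replicate 1 (edgeR adjusted p = 0.234) and -0.20 without siRCC2 replicate 3 (edgeR adjusted p = 0.190). The gene makes a short polyadenylated RNA of 3441 bases and a long one of 22743 bases that builds paraspeckles, both from the same start, and gene-level counts do not separate them.

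KCNQ1OT1 (ENSG00000269821, chromosome 11, 2608328 to 2699994, minus strand) was not abundant in these libraries, so the data go against that name for it. It had 1, 1 and 2 reads in siRCC2 replicates 1 to 3, against 0, 1 and 2 reads in siCtrl replicates 1 to 3, or 4 reads over the siRCC2 group and 3 over the siCtrl group. A count of 0 allows up to 3 reads, which is 0.149 CPM in siCtrl replicate 1, for counting error only, and a difference between groups was not detectable at this depth. The RNA is 91667 bases long in GENCODE 29, unspliced, and lies inside KCNQ1, a potassium channel gene on the opposite strand.

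KCNQ1 itself was low and fell. It had 7, 7 and 6 reads in siRCC2 replicates 1 to 3, against 45, 52 and 46 in siCtrl replicates 1 to 3, which gives -2.74 ± 0.25 on the log2 scale (SE; edgeR adjusted p = 0.000267). No siRCC2 library came near the siCtrl range. Of 12 genes listed for the imprinted KCNQ1 domain 9 were tested, and 3 of them rose, 3 fell and 3 did not pass, with a median log2 fold change of -0.09 beside -0.02 for all tested genes. The 6 calls of 9 stand beside the 41.8% of all tested genes called, and 6 were also called without siRCC2 replicate 1. SLC22A18, a transporter gene (-1.27 ± 0.15, edgeR adjusted p = 0.000699), and its antisense partner SLC22A18AS (-1.18 ± 0.19, edgeR adjusted p = 0.00255) fell, and overlapping antisense genes such as these may share reads. The tetraspanin gene CD81 (0.67 ± 0.09), the lipid transfer gene OSBPL5 (0.92 ± 0.14) and PHLDA2, which restrains placental growth in mice (0.25 ± 0.09, edgeR adjusted p = 0.0483) rose. CDKN1C, an inhibitor of cyclin-dependent kinases and the best known target of KCNQ1OT1, had 2.93 ± 0.517 CPM in siRCC2 and 4.09 ± 0.454 CPM in siCtrl and did not pass (-0.48 ± 0.19, edgeR adjusted p = 0.0800).

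**Figure D2:**
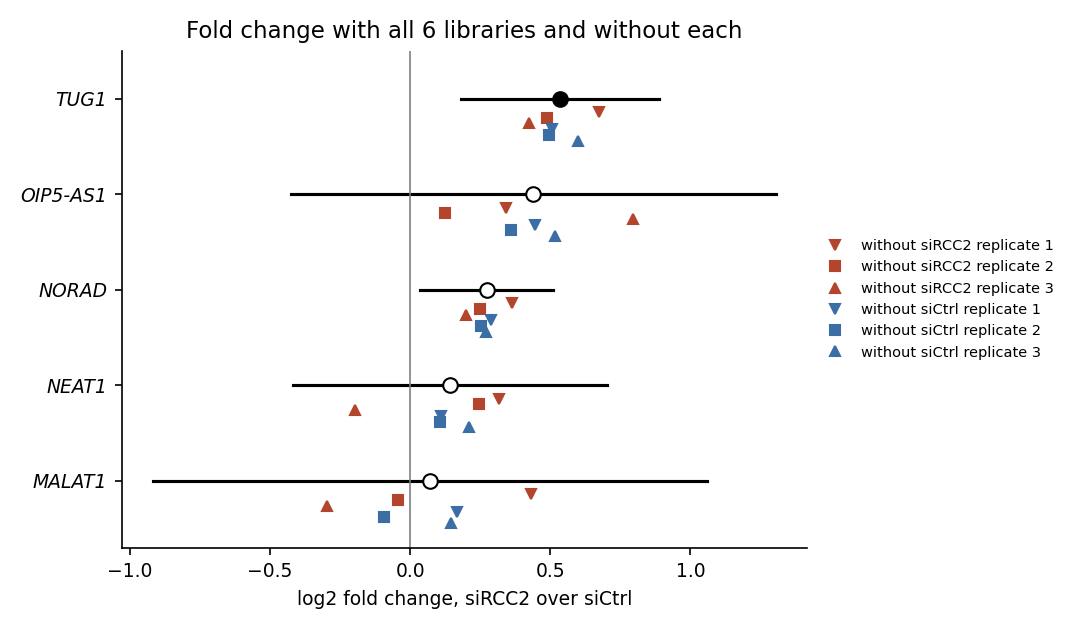
Log2 fold change, siRCC2 over siCtrl, of the 5 tested RNAs; circles and lines are the value with all 6 libraries and its 95% interval (filled where the edgeR adjusted p was under 0.05), red symbols the value without 1 siRCC2 library and blue symbols without 1 siCtrl library. TUG1, OIP5-AS1 and NORAD stay above 0 whichever library is left out, while MALAT1 runs from -0.30 to 0.43 and NEAT1 from -0.20 to 0.32.

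The levels of the 5 RNAs can be ordered once divided by the length of the longest transcript. NORAD led with 57.0 ± 7.56 CPM per kb in siRCC2 and 47.2 ± 1.05 CPM per kb in siCtrl (SD, n = 3 each). TUG1 came next with 17.2 ± 3.40 in siRCC2 and 11.9 ± 0.915 in siCtrl, on the same scale. OIP5-AS1 followed with 12.7 ± 6.35 CPM per kb in siRCC2 and 9.39 ± 1.02 in siCtrl. MALAT1 had 8.30 ± 4.49 CPM per kb in siRCC2 and 7.91 ± 1.61 in siCtrl, and NEAT1 had 6.78 ± 2.54 in siRCC2 and 6.14 ± 0.491 in siCtrl.

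NORAD stood clear of the rest in both groups. In siRCC2 the SD ranges around the means of TUG1 and OIP5-AS1 overlapped, as did those of OIP5-AS1, MALAT1 and NEAT1, and in siCtrl those of OIP5-AS1 and MALAT1 and of MALAT1 and NEAT1 overlapped. For NEAT1 the place depends on the length used: over its short form of 3441 bases its level would be 44.8 CPM per kb in siRCC2 and 40.6 in siCtrl. Among 16442 tested genes with a transcript length, ranked by mean CPM per kb over all 6 libraries, NORAD was in the top 7.78%, TUG1 in the top 27.4%, OIP5-AS1 in the top 33.7%, MALAT1 in the top 40.9% and NEAT1 in the top 46.3%. Together the 6 RNAs held 594 to 857 CPM (scaled to total counts) in siRCC2 libraries and 600 to 690 in siCtrl libraries, with means of 754 ± 140 in siRCC2 and 647 ± 45.1 in siCtrl (SD, n = 3 each) that differ by less than the siRCC2 spread.

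MALAT1, OIP5-AS1 and NEAT1 shared a wide spread among the siRCC2 libraries. The SD of log2 CPM over the siRCC2 libraries was 0.98 for MALAT1, larger than that of 99.4% of the 4587 tested genes with a mean of at least 50 CPM. It was 0.87 for OIP5-AS1 (larger than 99.0% of those genes), 0.51 for NEAT1 (95.5%), 0.30 for TUG1 (87.6%) and 0.20 for NORAD (76.5%). Over the siCtrl libraries the SD was 0.32 for MALAT1 (larger than 95.7%), 0.16 for OIP5-AS1 (86.1%), 0.11 for NEAT1 (77.0%), 0.11 for TUG1 (75.8%) and 0.03 for NORAD (18.8%). Each of the 5 thus varied more in siRCC2 than in siCtrl. The wider spread was not particular to these RNAs, as siRCC2 libraries differed more from each other over all genes too. Chi-square over its degrees of freedom was 13.1 to 31.9 for pairs of siRCC2 libraries and 9.56 to 9.90 for pairs of siCtrl libraries. The difference in spread was not tested.

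The low library was not the same for all. MALAT1, NEAT1, TUG1 and NORAD were lowest in siRCC2 replicate 1 and highest in replicate 3, while OIP5-AS1 was lowest in replicate 3. Relative to the mean of the other siRCC2 libraries, replicate 1 differed by -1.68 on the log2 scale for MALAT1, -0.62 for NEAT1, -0.52 for TUG1, -0.34 for NORAD and 0.48 for OIP5-AS1. Of 10204 tested genes with a mean of at least 10 CPM, 0.637% were lower than MALAT1 in this measure. Replicate 3 differed from the mean of the others by -1.48 for OIP5-AS1, and 0.118% of the genes were lower.

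Set beside transcript length, NEAT1 (22.7 kb) and TUG1 (7.47 kb) lay inside the middle 50% of genes of 6 kb and over, which ran from -0.63 to 0.04. MALAT1 (8.71 kb) lay far below that range and OIP5-AS1 (8.83 kb) above it, and NORAD (5.34 kb) was a little below the middle 50% of genes of 3 to 6 kb, -0.26 to 0.16. The part of transcript length in the spread was not tested.

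**Figure D3:**
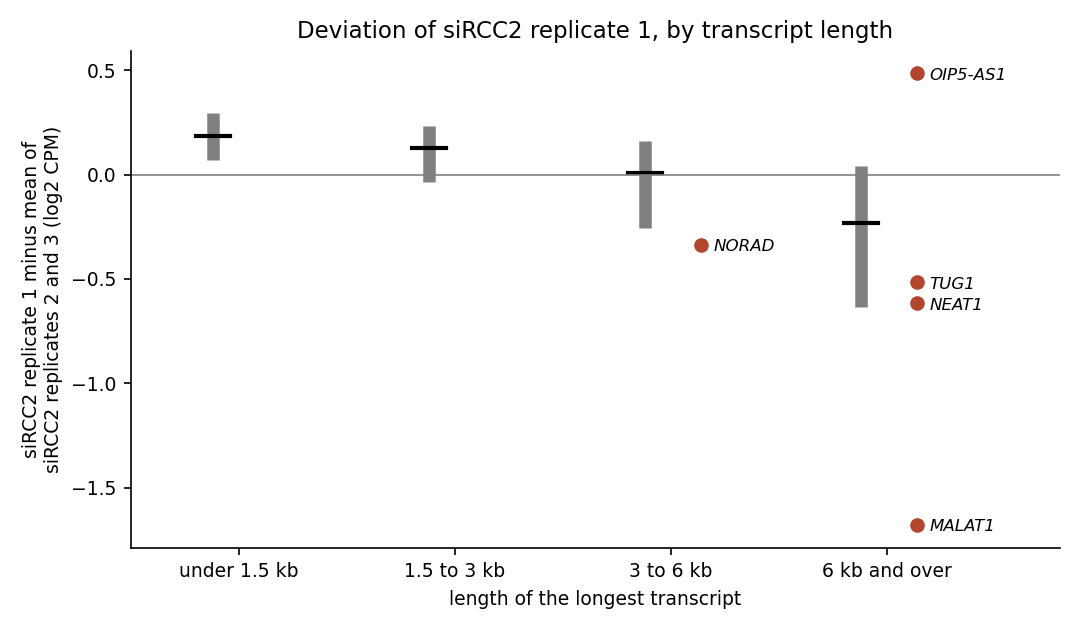
Difference in log2 CPM between siRCC2 replicate 1 and the mean of siRCC2 replicates 2 and 3 (vertical axis), by length of the longest transcript (horizontal axis), for tested genes of at least 10 CPM; black lines are medians, grey bars the middle 50% of genes and red points the 5 RNAs. The median goes from 0.19 under 1.5 kb to -0.23 at 6 kb and over, with MALAT1 at -1.68 and OIP5-AS1 at 0.48.

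Some genes followed the RNAs across the 6 libraries. By Pearson correlation of log2 CPM over the 6 libraries, among named genes of at least 10 CPM, the closest to TUG1 were ARMC1, PSMC6 and ZNF704 (r of 0.995, 0.995 and 0.995), and to NORAD VPS4B, C12orf4 and LINC00641 (0.998, 0.997 and 0.997). Those closest to MALAT1 were MAP3K20, ABCC2 and RUFY2 (0.998, 0.994 and 0.993), to NEAT1 SDAD1, BLZF1 and DEPDC1 (0.984, 0.982 and 0.976), and to OIP5-AS1 RSU1, MYO18A and DRG2 (0.995, 0.984 and 0.980). Between the RNAs themselves r was 0.97 for TUG1 and NORAD, 0.76 for MALAT1 and NEAT1, and -0.76 for NEAT1 and OIP5-AS1. All these values share the same 6 libraries and scaling, those of other genes are the highest among all genes searched, and they are given as descriptions.

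Paraspeckles form when SFPQ, NONO and other proteins coat the long form of NEAT1. Among 20 paraspeckle protein genes, 6 were higher, 1 was lower and 13 missed the threshold, with a median log2 fold change of 0.05 beside -0.02 for all tested genes. SMARCA4, a chromatin remodelling ATPase, rose to 88.2 ± 1.39 CPM in siRCC2, against 38.5 ± 2.65 CPM in siCtrl (log2 fold change 1.20 ± 0.08, edgeR adjusted p = 9.12e-05). RBM14 (0.87 ± 0.07) and SFPQ (0.58 ± 0.07), both needed to build paraspeckles, and the 3′ end processing subunit CPSF7 (0.53 ± 0.09) rose, with edgeR adjusted p up to 0.00289. The 7 calls of 20 stand beside the 41.8% of all genes called, and 10 of 20 were called without siRCC2 replicate 1.

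Nuclear speckles, the home of MALAT1, hold splicing factors. Among 16 speckle protein genes, 5 were higher, 1 was lower and 10 missed the threshold (median 0.11), so the share called was near the 41.8% of all tested genes. The splicing factors SRSF2 (0.72 ± 0.07), U2AF2 (0.54 ± 0.08) and SRSF3 (0.48 ± 0.08) and the splicing-associated ERH (0.57 ± 0.07) rose, with edgeR adjusted p of at most 0.00338. Without siRCC2 replicate 1, 8 of the 16 were called, and the range was 4 to 8 over all libraries left out 1 at a time.

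Enzymes of the tRNA processing pathway make the MALAT1 and NEAT1 ends. Of 14 genes for RNase P, RNase Z, the CCA-adding enzyme and the triple helix binder METTL16, 4 rose, 2 fell and 8 did not pass, with a median of 0.23, a share called near the 41.8% of all tested genes. POP1, the large RNase P protein, had 16.8 ± 2.33 CPM in siRCC2 and 7.04 ± 1.62 CPM in siCtrl (log2 fold change 1.26 ± 0.20, edgeR adjusted p = 0.00263). RPP30 (0.57 ± 0.10) rose and RPP25 (-0.65 ± 0.12) fell. RPPH1, the catalytic RNA of RNase P, had a log2 fold change of 2.96 ± 0.35 (edgeR adjusted p = 0.000725), a value that is uncertain because its locus lies inside that of AL355075.4, to which 0 or 1 reads per library were given. The count was 6 of 14 with all libraries and also without siRCC2 replicate 1.

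Nuclear RNAs of this kind are trimmed or degraded by the nuclear exosome. Of 21 genes for the exosome, its adaptors and the exonuclease XRN2, 3 rose, 5 fell and 13 did not pass, with a median of -0.01; the 8 called are near the 41.8% of all tested genes. The ring subunit EXOSC6 (-1.15 ± 0.13), ZCCHC7 of the TRAMP complex (-0.61 ± 0.09), ZCCHC8 of the NEXT complex (-0.62 ± 0.13) and the exonuclease EXOSC10 (-0.30 ± 0.07) fell, with edgeR adjusted p of at most 0.0119. The count of 8 called was 10 without siRCC2 replicate 1, 4 without siCtrl replicate 1, and 5 without siRCC2 replicate 2 or siCtrl replicate 3.

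Of 8 tested genes for proteins reported to bind NORAD, 1 was higher, 1 lower and 6 did not pass, a smaller share called than the 41.8% of all tested genes, with a median of 0.08. PUM2, a Pumilio protein that NORAD holds back, had 79.3 ± 15.2 CPM in siRCC2 and 123 ± 10.1 CPM in siCtrl, a log2 fold change of -0.63 ± 0.14 (edgeR adjusted p = 0.0106). Of the proteins linked to NORAD in genome maintenance, the splicing and ubiquitin ligase PRPF19 rose (0.35 ± 0.09, edgeR adjusted p = 0.0182), while RBMX, CDC5L, ALYREF, KHDRBS1 and TOP1 did not pass (edgeR adjusted p from 0.0903 to 0.860). The count of 2 called was 3 without siRCC2 replicate 1 and 1 without siRCC2 replicate 2, siCtrl replicate 2 or siCtrl replicate 3.

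Among 6 genes tied to OIP5-AS1 or TUG1, 3 rose, 1 fell and 2 did not pass, with a median of 0.17, beside 41.8% called (20.7% higher) among all tested genes. GAK, a kinase whose messenger RNA OIP5-AS1 is known to bind, rose (0.41 ± 0.09, edgeR adjusted p = 0.0114), as did ELAVL1, the RNA-binding protein HuR (0.24 ± 0.07, edgeR adjusted p = 0.0355). Of the Polycomb subunits linked to TUG1, SUZ12 had 28.0 ± 8.92 CPM in siRCC2 and 50.9 ± 2.34 CPM in siCtrl (-0.86 ± 0.23, edgeR adjusted p = 0.0203), and EZH2 rose (0.29 ± 0.09, edgeR adjusted p = 0.0343). EED did not pass (edgeR adjusted p = 0.445). The count of 4 was 3 without siRCC2 replicate 1, 1 or 2 without siRCC2 replicate 2 or any 1 siCtrl library, and 2 with total count scaling.

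**Figure D4:**
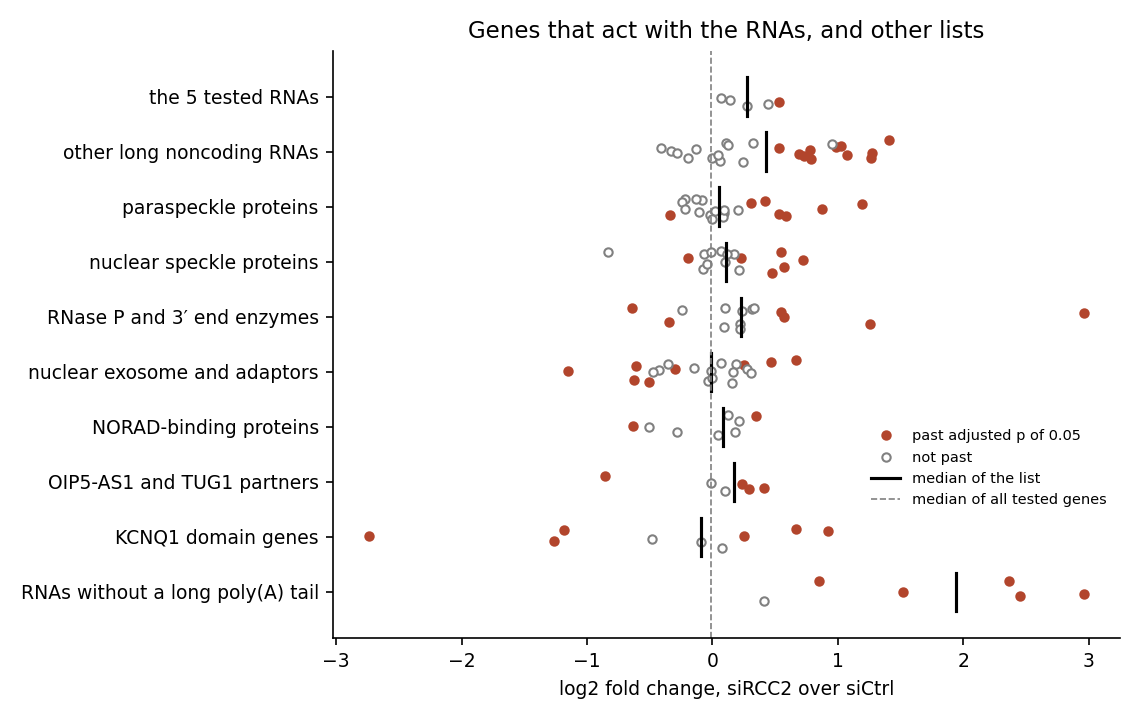
Log2 fold change, siRCC2 over siCtrl, of each tested gene (points, spread vertically for legibility) in lists of genes that act with the RNAs and in 2 lists of other RNAs; red points passed an edgeR adjusted p of 0.05, black lines are list medians and the dashed line is the median of all tested genes (-0.02). The list medians run from -0.09 (KCNQ1 domain) to 1.94 (RNAs without a long poly(A) tail), and the 5 tested RNAs have a median of 0.27.

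Other long noncoding RNAs were called more in the upward direction. Of 30 listed, 24 were tested, of which 11 rose, 0 fell and 13 did not pass by edgeR, with a median log2 fold change of 0.43, beside 41.8% called and 20.7% called higher among all tested genes. CYTOR had 56.4 ± 3.63 CPM in siRCC2 and 23.4 ± 2.03 CPM in siCtrl (1.27 ± 0.10), and its near-identical relative MIR4435-2HG (1.07 ± 0.09) rose too, with reads that could be split between the pair. LINC-PINT (1.41 ± 0.11) and the microRNA host MIR210HG (0.98 ± 0.15) also rose, with edgeR adjusted p of at most 0.00212. Of those lower in siRCC2 1 had an unadjusted p under 0.05 by edgeR, and 0 passed the adjusted threshold by edgeR, DESeq2 or limma-voom. Without siRCC2 replicate 1, 13 of the list were called. Over all 1736 tested genes that GENCODE 29 puts in long noncoding classes, 324 were higher, 208 lower and 1204 not past. Their median was 0.10, and the shares called and called higher were below the 41.8% and 20.7% of all tested genes. Of the 163 with at least 10 CPM 60 were higher and 28 lower, and there both shares were above those of all tested genes. The 5 RNAs had 1 higher, 0 lower and a median of 0.27.

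RNAs known to lack a long poly(A) tail were looked at because the MALAT1 and long NEAT1 ends lack one too. The signal recognition particle RNA RN7SL1 had 141 ± 6.97 CPM in siRCC2 and 27.4 ± 3.63 CPM in siCtrl (log2 fold change 2.37 ± 0.11), RN7SL2 changed by 2.45 ± 0.18, and the mitochondrial ribosomal RNAs MT-RNR1 (1.52 ± 0.06) and MT-RNR2 (0.85 ± 0.07) rose, with edgeR adjusted p of at most 0.000235. RMRP, the RNA of RNase MRP, did not pass (0.41 ± 0.37, edgeR adjusted p = 0.408). Of 6 tested in this list 5 rose and 0 fell by edgeR, DESeq2 and limma-voom alike, beside 20.7% of all tested genes higher by edgeR, with 0 lower at an unadjusted p under 0.05, and 5 were called without siRCC2 replicate 1. RPPH1, whose value is given above as uncertain, is 1 of the 5. Reads could be shared between RN7SL1 and RN7SL2 if their sequences are alike, which was not checked. The 5 may therefore not be separate observations. The log2 fold changes of MALAT1 and NEAT1 were 0.07 and 0.14. Mitochondrial genes held 5.77 to 6.16% of the counts in siRCC2 libraries and 5.14 to 5.42% in siCtrl libraries.

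Genes next to the RNAs were followed in the same fit, chosen from the nearest tested genes on each side. MORC2, a chromatin-silencing ATPase gene, lies 2.38 kb from TUG1 and had 64.4 ± 2.29 CPM in siRCC2 and 62.8 ± 2.39 CPM in siCtrl (log2 fold change 0.04 ± 0.07, edgeR adjusted p = 0.707). On the other side SMTN, a smooth muscle actin-binding protein 84.7 kb away, rose (1.11 ± 0.11, edgeR adjusted p = 0.000402). Beside OIP5-AS1, CHP1 at 2.10 kb, a calcium-binding protein gene, rose to 345 ± 20.8 CPM in siRCC2, against 218 ± 1.55 CPM in siCtrl (0.66 ± 0.07, edgeR adjusted p = 0.000375), as did NUSAP1 at 23.0 kb, a spindle protein gene (0.49 ± 0.10, edgeR adjusted p = 0.00624). Below NEAT1, FRMD8 at 9.25 kb rose (0.60 ± 0.09, edgeR adjusted p = 0.00205). The nearest tested gene between NEAT1 and MALAT1, AP000769.1, rose as well (0.66 ± 0.13, edgeR adjusted p = 0.00612). Around NORAD, CNBD2 at 14.9 kb did not pass (-0.32 ± 0.17, edgeR adjusted p = 0.165) and EPB41L1 at 40.5 kb, which links membrane to cytoskeleton, fell (-0.71 ± 0.08, edgeR adjusted p = 0.000733). Of 26 tested neighbours within 100 kb, 7 were higher and 6 lower, 13 in all, beside the 41.8% of all genes, and 13 were called without siRCC2 replicate 1.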

How the data were processed

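RNA sequencing libraries of DU145 cells were grouped by title into siRCC2 (3) and siCtrl (3). Per the labels' protocols, total RNA was made into libraries with an MGI kit. Bowtie2, RSEM, DESeq2 and GRCh38 are named in the submitters' processing notes, without versions. The authors deposited 1 table of whole-number counts per library, which may be rounded RSEM estimates, and RSEM shares reads among like sequences.

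The test was run on the deposited counts with edgeR 4.0.16 in R 4.3.3 (filterByExpr, TMM scaling, quasi-likelihood F-test, Benjamini-Hochberg over all tested genes, threshold 0.05). Fold changes are siRCC2 over siCtrl, with SE = |log2 fold change|/√F. CPM are TMM-scaled. DESeq2 1.42.0, limma-voom (limma 3.58.1), other scalings and filters, a replicate block, leaving out each library and a threshold of 0.01 were alternatives. No library was a copy of another: chi-square over its degrees of freedom was 13.1 to 31.9 within siRCC2 and 9.56 to 9.90 within siCtrl. Transcripts, lengths and strands came from GENCODE 29 on GRCh38, with gene coordinates from the deposited files, and promoters and miRNA from RefSeq. Tables and figures were made with Python 3.11.15.

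Members and lists were chosen with earlier results of these data known. Named from each list were called members with the 4 smallest p, and every tested gene of the KCNQ1 domain and of lists of up to 8. The values of some genes in the lists and beside the RNAs are not reported here.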

Additional observations from a re-analysis of the deposited data

How the results depend on the processing

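TUG1, NORAD and OIP5-AS1 had positive log2 fold changes in all 15 alternatives, NEAT1 in 14 and MALAT1 in 9. TUG1 passed in 10 of 15 and was not called with total count scaling (0.47, edgeR adjusted p = 0.0575). Leaving out each library gave it 0.42 to 0.67, adjusted p from 0.00121 to 0.0866, not called in 4 of 6. NORAD passed with DESeq2 size factors in edgeR (0.28) and without siRCC2 replicate 1, with a range of 0.20 to 0.36 over libraries left out. OIP5-AS1 ranged from 0.12 to 0.79 and passed without siRCC2 replicate 3 only among the 15. MALAT1 was below 0 with limma-voom (-0.084), with the replicate number as a block (-0.071) and with DESeq2 and that block (-0.067), and ran from -0.30 to 0.43 as libraries were left out, being -0.04 without siRCC2 replicate 2, -0.30 without siRCC2 replicate 3 and -0.09 without siCtrl replicate 2. NEAT1 ran from -0.20 (without siRCC2 replicate 3) to 0.32. The cause of these changes was not tested. Same-numbered libraries of the groups did not deviate together (correlations 0.06, -0.04 and 0.10), so the numbers are not taken as pairs. With the replicate block TUG1 was 0.52 (edgeR adjusted p = 0.0229) and 6295 genes were called, against 6911. At a threshold of 0.01, 4117 genes were called, and without 1 library 5112 to 7565. The summed share of the RNAs, siRCC2 over siCtrl, was 1.17, and 1.09 to 1.29 without 1 library. KCNQ1OT1 was tested only with genes of at least 1 read kept (0.41, edgeR adjusted p = 0.823), where 7 reads in all limit it, and its other alternatives gave no value. Scaling moved the median log2 fold change of all genes from -0.02 to -0.08 with total counts. Among the gene lists, counts moved by over 1.5 times in 4 alternatives for nuclear decay (3 to 5), 4 for NORAD partners (0 to 1), 9 for OIP5-AS1 and TUG1 partners (0 to 2), 1 for the KCNQ1 domain (3) and 1 for other long noncoding RNAs (6, with a filter of 10 CPM in 3 libraries).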
